A study of Homo sapiens with 91 samples.

Results

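The genes described here encode 3 kinds of transcription-linked cyclin-dependent kinase and the cyclins that activate them. They are CDK12 and CDK13 with cyclin K (CCNK), and the 2 copies of CDK11 (CDK11A and CDK11B) with the L-type cyclins (CCNL1 and CCNL2). These 7 genes were taken by symbol from a table of 62710 gene entries, and all 7 passed the filter on low counts in every cell line. RNA was sequenced from 91 libraries in 23 groups, covering 3 human cell lines: MOLT4, an acute lymphoblastic leukemia line (35 libraries), PSN1, a pancreatic adenocarcinoma line (32 libraries), and RH4, a rhabdomyosarcoma line (24 libraries). The sample labels write RH4 throughout, whereas the design text of the series names RH1 in its place, and the labels were followed. The cells received KI-CDK9d-32, a compound that degrades the transcription kinase CDK9, or KB-0742, an inhibitor of CDK9, or DMSO as the vehicle. MOLT4 was sampled at 2, 4 and 8 h with each agent, PSN1 at the same times but without KB-0742 at 2 h, and RH4 at 4 and 8 h. The groups were of 4 libraries each, apart from the MOLT4 vehicle group at 4 h with 3. The labels give no dose, so the compounds are compared at matched times and unstated doses. Libraries of a group were labelled as biological replicates, with nothing to say that they came from separately grown cultures, so each p-value measures only the spread between these libraries.

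CDK12 and CDK13 are large kinases that bind cyclin K and phosphorylate the C-terminal tail of RNA polymerase II while it transcribes the body of a gene. CDK12 is known above all for keeping long DNA repair genes transcribed to their ends. CDK11 binds cyclin L1 or L2, and it is known for activating the spliceosome by phosphorylating the SF3B complex. CDK9, the target of both compounds, acts with cyclin T and releases polymerase paused near the start of genes.

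The counts assigned to genes per library ran from 1598283 to 3240753 in MOLT4, from 1998712 to 3227113 in PSN1 and from 1670111 to 3136769 in RH4. Markers of T-lineage leukemia, pancreatic and epithelial carcinoma, and muscle and rhabdomyosarcoma were summed in each library. The list of the labelled cell type was the highest in 35 of 35 MOLT4, 32 of 32 PSN1 and 24 of 24 RH4 libraries. An equal amount of synthetic spike-in RNA had been added to each lysate, and its share of all counts was 11.7% to 61.5% in MOLT4, 9.87% to 22.4% in PSN1 and 7.51% to 19.2% in RH4. In MOLT4 at 8 h its mean was 14.5% ± 1.91 (SD, n = 4) in vehicle, 39.9% ± 14.8 under the degrader KI-CDK9d-32 and 21.5% ± 2.59 under the inhibitor KB-0742. Each compound differed from vehicle there with a two-sided exact permutation p of 0.0286, the smallest that 70 arrangements allow, and 0.126 after Benjamini-Hochberg adjustment over 22 comparisons. Fold changes below are therefore given relative to the other genes of a library (TMM scaling) and, where it matters, relative to the spike-in RNA. On the spike-in scale the median gene fell in each of the 15 comparisons with vehicle, by 0.29 to 2.99 on the log2 scale, whereas on the relative scale it fell by at most 0.18. In MOLT4 at 2, 4 and 8 h the spike-in medians were -0.41, -1.13 and -2.99 with KI-CDK9d-32 and -0.86, -1.38 and -1.41 with KB-0742. In PSN1 they were -0.29, -0.61 and -1.01 with KI-CDK9d-32, and -0.92 and -0.94 with KB-0742 at 4 and 8 h. In RH4 at 4 and 8 h they were -0.36 and -0.92 with KI-CDK9d-32 and -1.12 and -1.66 with KB-0742. Members called lower on that scale stand beside these values. Between the compounds the median gene differed on the spike-in scale by -1.46 in MOLT4 at 8 h and by 0.72 and 0.71 in RH4 at 4 and 8 h. Elsewhere it differed by 0.01 to 0.39. A fall on that scale in bulk RNA cannot tell fewer cells apart from less RNA per cell.

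The members lie on 5 chromosomes of GRCh38 (GENCODE v29 positions), and 3 of them sit close together at the end of chromosome 1. CCNL2 spans chr1:1385711-1399328, CDK11B chr1:1635227-1659012 and CDK11A chr1:1702730-1724324, all on the minus strand. CDK12 spans chr17:39461511-39564907, CDK13 chr7:39949646-40099580 and CCNK chr14:99481169-99535044 on the plus strand, and CCNL1 spans chr3:157146508-157160760 on the minus strand. The CDK11 copies are near duplicates: 2055 distinct words of 31 bases occur in the transcripts of both, which is 40.5% of the words of CDK11A and 55.2% of those of CDK11B. No such word was shared between any other pair of members. Reads from the shared stretches can be split between the copies only by the quantifier's estimate, so each CDK11 value is uncertain, and their sum is given beside them. CCNK overlaps CCDC85C on the opposite strand over 34865 bases, and CDK11A overlaps the transcript AL031282.2 on its own strand over 21589 bases. The library kit did not keep strand.

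The upstream sequences show what the CDK11 copies share and where the L-type cyclins differ. They are from RefSeq (GRCh38.p14), are written 5′ to 3′ on the minus strand, on which all 4 genes lie, and positions count back from the RefSeq gene start. The 4 short motifs below were searched on both strands in the 250 bases before the start: the cyclic AMP response element TGACGTCA, the E-box CACGTG, the CCAAT box CCAAT and the ETS core GGAAGT. No 2 of them overlap in the runs shown, and the capitals mark the matches.
CDK11A, chr1:1724408-1724607, bases -250 to -51: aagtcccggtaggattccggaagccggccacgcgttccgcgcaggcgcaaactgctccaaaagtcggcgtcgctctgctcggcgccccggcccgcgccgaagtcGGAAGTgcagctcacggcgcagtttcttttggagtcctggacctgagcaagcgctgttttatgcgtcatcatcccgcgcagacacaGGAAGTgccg
CDK11B, chr1:1659055-1659254, bases -250 to -51: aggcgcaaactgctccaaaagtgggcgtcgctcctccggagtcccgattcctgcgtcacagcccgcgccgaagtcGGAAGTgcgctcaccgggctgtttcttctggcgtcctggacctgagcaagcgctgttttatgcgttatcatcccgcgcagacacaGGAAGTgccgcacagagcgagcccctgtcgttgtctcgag
CCNL2, chr1:1399386-1399585, bases -250 to -51: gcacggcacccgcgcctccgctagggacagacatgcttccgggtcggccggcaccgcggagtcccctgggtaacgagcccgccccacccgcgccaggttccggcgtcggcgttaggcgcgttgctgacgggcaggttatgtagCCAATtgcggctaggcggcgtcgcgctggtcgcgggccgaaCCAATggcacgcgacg
CCNL1, chr3:157160215-157160244, bases -97 to -68: gcccggcgtggTGACGTCAgggcggaagcg

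The 2 CDK11 promoters share 61.2% of their 250 bases in identical runs of at least 12 bases, the longest of 50. Both hold the ETS core at 2 places, at -146 and -60 in CDK11A and at -175 and -90 in CDK11B. CDK11B also holds CCAAT at -11, outside the run shown, and CDK11A holds none. CCNL2 holds CCAAT at -107 and -66, and CCNL1 holds the cyclic AMP response element at -86. The CCNL1 run shown lies inside the GENCODE span of that gene given above, so it is upstream of the RefSeq start only. Among 35116 promoters of the same length, TGACGTCA is found in 1.65%, CACGTG in 6.34%, CCAAT in 32.0% and GGAAGT in 19.5%. The E-box, which MYC and MAX are known to bind, is in none of the 7 members' windows. Of the members not printed, CCNK holds CCAAT at -83, CDK13 holds GGAAGT at -159 or -104 from its 2 RefSeq starts, and CDK12 holds none of the 4. A match is a string of letters only, and its absence from this window says nothing of a factor.

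Levels between genes are compared per length, in TPM (transcript abundance scaled to a common total per library) at 8 h in vehicle. The cyclins were the more abundant RNAs in each line and CDK13 the least on average. In RH4 the order of mean levels was CCNL2 at 44.6 ± 4.40 TPM (SD, n = 4), CCNL1 at 22.1 ± 6.68, CCNK at 18.4 ± 2.14, CDK11B at 11.2 ± 1.02, CDK11A at 8.41 ± 1.83, CDK12 at 2.56 ± 0.384 and CDK13 at 1.34 ± 0.318. In MOLT4 it was CCNL1 at 17.1 ± 5.34, CCNK at 15.7 ± 2.11, CCNL2 at 12.6 ± 2.08, CDK11B at 4.95 ± 0.873, CDK11A at 3.70 ± 1.14, CDK12 at 2.73 ± 0.130 and CDK13 at 0.932 ± 0.348. In PSN1 it was CCNL2 at 14.4 ± 7.20, CCNL1 at 11.6 ± 4.05, CCNK at 10.5 ± 2.62, CDK11B at 3.15 ± 1.29, CDK12 at 1.88 ± 0.203, CDK11A at 1.70 ± 0.841 and CDK13 at 0.616 ± 0.409. Neighbours in these orders often overlapped in their libraries: the 3 cyclins could not be ordered in MOLT4 or PSN1, nor CCNL1 and CCNK in RH4, whereas CCNL2 in RH4 (40.1 to 48.5 TPM) lay above every other member. The deposited TPM counts spike-in RNA in its total, so a line with a larger spike-in share reads lower.

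**Figure D1:**
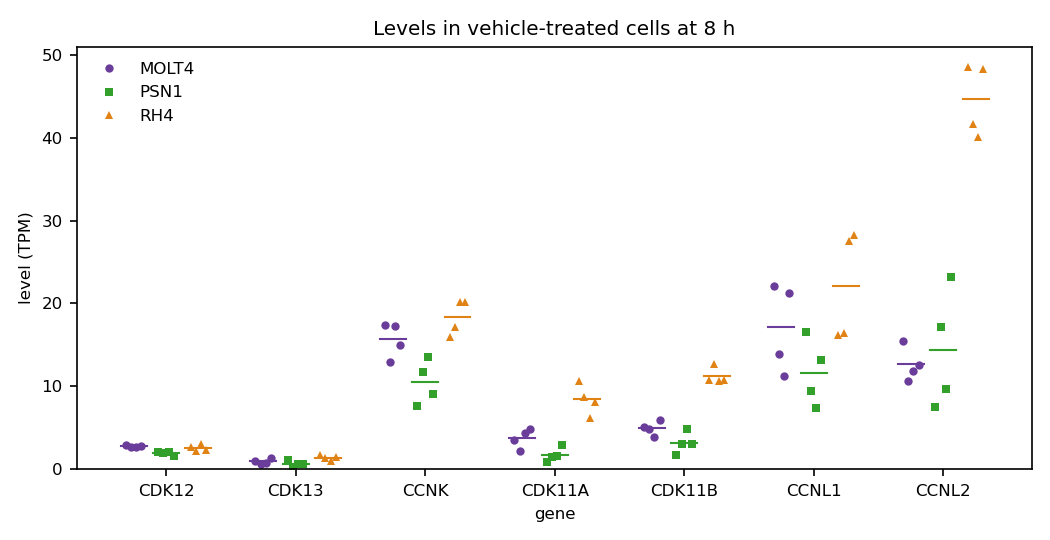
Level of each of the 7 genes in vehicle at 8 h, in TPM, with 1 point per library and the mean of 4 libraries per line marked. CCNL2 in RH4 stands above all other members at 44.6 TPM, and CDK13 has the lowest mean in each line.

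Between lines in vehicle at 8 h, tested on the counts of all lines in 1 fit, RH4 held more of the CDK11 and cyclin L2 RNAs. MOLT4 differed from RH4 in 3 of the 7 members, all lower, beside 48.6% of all genes called; a gene is called where edgeR's quasi-likelihood test gave an adjusted p under 0.05. These were CCNL2, lower by a log2 fold change of -1.55 ± 0.17 (SE), CDK11A (-1.08 ± 0.32) and CDK11B (-0.97 ± 0.25), with the libraries of the lines not overlapping. PSN1 was lower than RH4 in 4 members, beside 47.4% of all genes: CDK11A (-2.05 ± 0.34), CDK11B (-1.45 ± 0.26), CCNL2 (-1.10 ± 0.17) and CCNK (-0.36 ± 0.16). The CCNK call was lost when replicate 2, 3 or 4 of every group was left out (edgeR adjusted p 0.0814 to 0.275). MOLT4 against PSN1 gave 2 called members beside 50.7% of all genes, CDK11A higher by 0.96 ± 0.36 and CCNL2 lower by -0.46 ± 0.17. Neither of those calls held without each replicate: without replicate 1 or 3 for CDK11A (adjusted p 0.0641 to 0.169) and without 2 or 4 for CCNL2 (0.186 to 0.666). The CDK11A call was also lost with the replicate number as a block (0.62, adjusted p 0.212). Neither MOLT4 against PSN1 call held relative to spike-in RNA (CDK11A 0.97, adjusted p 0.0961; CCNL2 -0.51, 0.244).

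Cyclin L1 rose with KB-0742, and on the relative scale its change in MOLT4 at 8 h was the largest of the 7 genes against vehicle. That rise was 1.54 relative to spike-in RNA, and the falls of CDK13 (-3.60) and CDK12 (-3.19) with KI-CDK9d-32 in MOLT4 at 8 h were larger. In MOLT4 at 8 h its CPM (counts scaled to the library's TMM-adjusted total, thus on the relative scale) were 31.1, 26.5, 27.5 and 28.8 in vehicle, 297, 241, 149 and 176 with KB-0742, and 40.0, 40.3, 28.6 and 32.2 with KI-CDK9d-32. The KB-0742 libraries lay far above the other groups, while the degrader overlapped vehicle. The log2 fold change with KB-0742 was 2.92 ± 0.17 (SE, edgeR adjusted p 2.06e-19), against 0.32 ± 0.19 with KI-CDK9d-32 (0.164). By limma on log2(TPM + 1) that degrader value turned to -1.26, called lower (adjusted p 0.000823). At 4 h CCNL1 stood at 29.1, 23.7 and 32.9 CPM in MOLT4 vehicle, at 113, 92.3, 87.8 and 112 under KB-0742 and at 22.2, 21.3, 14.5 and 19.5 under the degrader. The compounds thus lay on opposite sides of vehicle with no overlap, KB-0742 higher by 1.83 ± 0.19 (adjusted p 2.67e-11) and KI-CDK9d-32 lower by -0.55 ± 0.20 (0.0342). That degrader call was lost on leaving out vehicle replicate 1 or 4 or degrader replicate 3 or 4 (adjusted p 0.0549 to 0.160). At 2 h neither compound differed from vehicle in the test: 32.6 ± 3.25 CPM under KB-0742, 22.7 ± 4.52 under KI-CDK9d-32 and 28.1 ± 2.93 in vehicle (SD, n = 4).

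In PSN1 at 4 h CCNL1 stood at 18.0, 24.7, 17.0 and 19.9 CPM in vehicle, at 59.5, 82.1, 59.6 and 62.0 under KB-0742 and at 32.2, 30.3, 38.2 and 30.4 under the degrader. All 3 groups were apart, and the log2 fold changes were 1.72 ± 0.21 (adjusted p 6.07e-08) and 0.72 ± 0.21 (0.0289). The second of these was lost on leaving out vehicle replicate 1, 3 or 4 or degrader replicate 3 (edgeR adjusted p 0.0611 to 0.108). At 8 h in PSN1 the vehicle libraries were at 43.7, 22.5, 20.1 and 24.5 CPM, those with KB-0742 at 83.3, 70.3, 97.2 and 104, and those with KI-CDK9d-32 at 34.5, 38.3, 29.01 and 31.4. The first vehicle library lay above every degrader library. KB-0742 was higher by 1.68 ± 0.21 (adjusted p 4.08e-08), and KI-CDK9d-32 differed by 0.28 ± 0.21 (0.384), or was called without that vehicle library (0.0423).

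In RH4 at 8 h CCNL1 stood at 33.9, 23.5, 41.6 and 39.9 CPM in vehicle, at 154, 150, 140 and 148 under KB-0742 and at 67.5, 62.1, 46.3 and 40.6 under the degrader. KB-0742 lay above all others, and 3 of 4 degrader libraries lay above vehicle. The log2 fold changes were 2.09 ± 0.17 (edgeR adjusted p 4.65e-13) and 0.64 ± 0.18 (0.00950), the latter lost without degrader replicate 1 or vehicle replicate 2 (0.0607 to 0.0611). At 4 h the change with KB-0742 in RH4 was 1.02 ± 0.18 (1.66e-05) and with KI-CDK9d-32 0.14 ± 0.18 (0.723). Tested by limma on log2(TPM + 1), that KB-0742 value turned to -0.16 (adjusted p 0.597). Why it turned was not tested.

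Relative to spike-in RNA, CCNL1 stayed called higher with KB-0742 in MOLT4 at 8 h (1.54, adjusted p 0.00324) and in PSN1 at 4 h (0.91, 0.0280), and in none of the other 5 comparisons with KB-0742. It was then 0.50 in MOLT4 at 4 h, 0.77 in PSN1 at 8 h, 0.01 and 0.49 in RH4 at 4 and 8 h and -0.59 in MOLT4 at 2 h. With KI-CDK9d-32 it was called lower on that scale in MOLT4 at 4 and 8 h (-1.56 and -2.48), and the rise in RH4 at 8 h turned to -0.29.

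Cyclin L2, the partner gene with a like role, was higher with KB-0742 in all 7 comparisons with vehicle on the relative scale. In MOLT4 at 2 h it stood at 44.6, 43.3, 43.2 and 26.8 CPM in vehicle, 85.7, 98.9, 79.6 and 74.2 under KB-0742 and 54.1, 52.9, 50.6 and 48.8 under the degrader. KB-0742 already lay apart at this time, with a log2 fold change of 1.10 ± 0.16 (edgeR adjusted p 2.62e-07), while the degrader's 0.38 ± 0.16 did not pass (0.125) although its libraries did not overlap vehicle. At 8 h in MOLT4 the vehicle libraries were at 39.2, 34.6, 40.2 and 32.7 CPM, those with KB-0742 at 204, 227, 134 and 157, and those with KI-CDK9d-32 at 74.7, 75.1, 107 and 74.9. These 3 groups did not overlap, and the changes were 2.29 ± 0.16 (4.27e-17) and 1.16 ± 0.17 (6.37e-08).

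In PSN1 at 8 h CCNL2 stood at 27.2, 58.5, 35.8 and 75.9 CPM in vehicle, 154, 120, 129 and 156 under KB-0742 and 82.3, 94.4, 71.2 and 97.2 under the degrader. The vehicle libraries were widely spread and the highest lay among those of the degrader. The log2 fold changes were 1.49 ± 0.21 (edgeR adjusted p 1.13e-06) and 0.80 ± 0.21 (0.00537). In RH4 at 8 h CCNL2 stood at 130, 98.7, 108 and 116 CPM in vehicle, 313, 326, 324 and 374 under KB-0742 and 172, 185, 196 and 213 under the degrader, without overlap. The changes there were 1.56 ± 0.11 (4.94e-15) and 0.76 ± 0.11 (2.16e-06). Across the 8 comparisons of KI-CDK9d-32 with vehicle CCNL2 was called higher in 5, the others being MOLT4 at 2 h and PSN1 at 2 and 4 h. The call in MOLT4 at 4 h (0.46, 0.0416) was lost without any of 6 of the 7 libraries, all but degrader replicate 2 (0.0580 to 0.161). The call in RH4 at 4 h (0.41, 0.0195) was lost without vehicle replicate 1 or degrader replicate 2 or 3 (0.0501 to 0.105). In PSN1 at 4 h the change of 0.63 missed the threshold (0.0512), and passed it with the replicate block (0.65, 0.00586). Relative to spike-in RNA no CCNL2 change with KB-0742 was called (-0.06 to 0.96), and with KI-CDK9d-32 it was called lower in MOLT4 at 8 h (-1.72, 0.000241) and turned to -0.55 in MOLT4 at 4 h, -0.21 in PSN1 at 8 h and -0.10 in RH4 at 8 h. On log2(TPM + 1) the degrader values in MOLT4 turned to -0.12 at 4 h (limma adjusted p 0.626) and to -0.40 at 8 h, called lower (0.0305).

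**Figure D2:**
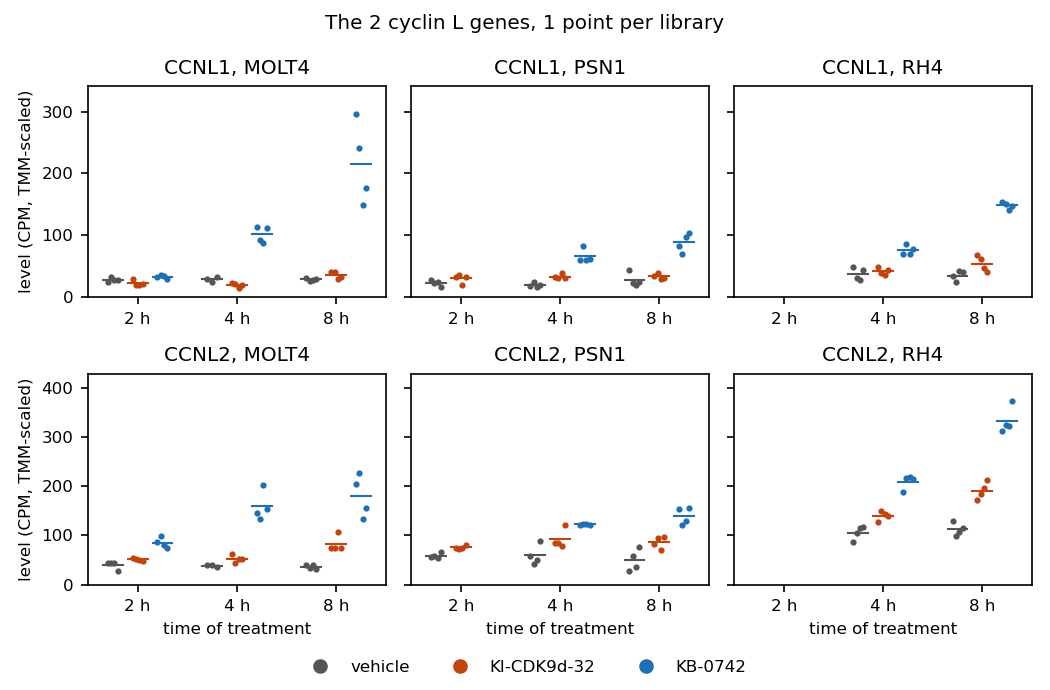
CPM of CCNL1 and CCNL2 in every library, by line, time and agent, with 1 point per library. The KB-0742 libraries of CCNL1 in MOLT4 at 8 h lie between 149 and 297 CPM, above all vehicle and degrader libraries; CPM is on the relative scale, and against spike-in RNA most of these rises are not called.

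The compounds differed in the counts of both cyclins at matched times, with KI-CDK9d-32 below KB-0742 on the relative scale. CCNL1 was lower in 7 of 7 comparisons, by log2 fold changes of -0.52 ± 0.18 at 2 h, -2.37 ± 0.19 at 4 h and -2.60 ± 0.18 at 8 h in MOLT4, -1.002 ± 0.20 and -1.40 ± 0.20 at 4 and 8 h in PSN1, and -0.87 ± 0.17 and -1.45 ± 0.17 in RH4. The 2 h difference was lost on leaving out any of 6 of the 8 libraries, all but KI-CDK9d-32 replicate 1 and KB-0742 replicate 4 (edgeR adjusted p 0.0577 to 0.105). In mean TPM CCNL1 was instead higher with KI-CDK9d-32 in MOLT4 at 2 h (11.6 against 8.22). The same held in PSN1 at 4 h (17.5 against 16.7) and RH4 at 4 h (25.5 against 22.0). In the remaining comparisons mean TPM was lower with KI-CDK9d-32, and the compounds were not tested on TPM. CCNL2 was lower in 6 of 7, from -0.58 in RH4 at 4 h to -1.58 in MOLT4 at 4 h. The exception was PSN1 at 4 h (-0.40, adjusted p 0.184, with a 95% confidence interval of -0.82 to 0.01), which passed with the replicate block (-0.43, 0.0483). Relative to spike-in RNA, 4 of the 7 CCNL1 differences (-4.02, -2.06, -1.44 and -0.78) and 1 of the CCNL2 differences (-2.68, MOLT4 at 8 h) were called, and CCNL2 in RH4 at 4 h turned to 0.11.

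Between 4 and 8 h 5 of the 12 differences in effect on the L-type cyclins were called, all higher at 8 h on the relative scale. The change of CCNL1 with KB-0742 was larger at 8 h than at 4 h by 1.09 ± 0.25 in MOLT4 (edgeR interaction, adjusted p 0.00109) and by 1.07 ± 0.25 in RH4 (0.00409), and the difference in PSN1 was -0.04 ± 0.29 (0.976). For CCNL2 it was larger by 0.57 ± 0.15 in RH4 (0.0147, or 0.0538 without vehicle replicate 2 at 8 h), and the difference in MOLT4 was 0.26 ± 0.23 (0.500). None of these KB-0742 differences was called relative to spike-in RNA, where CCNL1 was at 1.04 in MOLT4 (0.750) and 0.48 in RH4 (0.550) and CCNL2 at 0.059 in RH4 (0.956). With KI-CDK9d-32 in MOLT4 the differences were 0.86 ± 0.28 for CCNL1 (0.0299), from -0.55 at 4 h to an uncalled 0.32 at 8 h, and 0.70 ± 0.24 for CCNL2 (0.0442), and relative to spike-in RNA they turned to -0.92 and -1.16, neither called. The first was lost without any of 6 libraries (0.0537 to 0.102: vehicle replicates 1 and 4 and degrader replicate 3 at 4 h, vehicle replicate 2 and degrader replicates 1 and 2 at 8 h) and the second without any of 9 (0.0551 to 0.137: vehicle replicates 1, 3 and 4 and degrader replicates 2, 3 and 4 at 4 h, vehicle replicates 2 and 4 and degrader replicate 3 at 8 h). The effect of KB-0742 on CCNL1 at 8 h was larger in MOLT4 than in PSN1 by 1.14 ± 0.27 (0.00113) and than in RH4 by 0.81 ± 0.26 (0.0330). For CCNL2 the same differences were 0.72 ± 0.24 (0.0307) and 0.72 ± 0.23 (0.0315). These line differences are less firm than their errors look: each was lost without 1 or more of the replicate numbers (CCNL1 0.0853 without replicate 1 against PSN1, and 0.0729 to 0.134 without any 1 number against RH4; CCNL2 0.238 to 0.445 without 2 or 4 against PSN1, and 0.128 to 0.204 without 1 or 2 against RH4). None was called relative to spike-in RNA.

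CCNL1 is annotated with 26 transcripts of 458 to 4799 bases, among them 3 protein-coding ones of 549 to 2388 bases and 16 retained-intron ones of 505 to 4799 bases. A gene's estimated count divided by its TPM moves with the length of the transcripts that the quantifier assigned reads to. This ratio, as log2 less the median over genes of the library, was taken for genes with at least 5 counts in every library of a line, which left out CDK13 in MOLT4 and PSN1. In MOLT4 at 4 h it was -0.73, -1.04, -0.62 and -1.51 for CCNL1 under the degrader, 0.03, 0.03, 0.02 and 0.05 under the inhibitor, and -0.55, 0.02 and -0.41 in vehicle. The KB-0742 libraries lay close together, above the degrader libraries and only just above 1 of the vehicle libraries, while those of the other 2 groups were spread out.

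The CCNL1 ratio was lower with KI-CDK9d-32 than with KB-0742 in 5 of 7 comparisons by limma across all such genes. The differences in MOLT4 were -0.67 ± 0.18 at 2 h (SE; limma adjusted p 0.0474), -1.01 ± 0.18 at 4 h (0.000345) and -0.52 ± 0.18 at 8 h (0.0608, not called). In PSN1 they were -0.93 ± 0.21 at 4 h (0.0130) and -0.81 ± 0.21 at 8 h (0.0333), and in RH4 -0.65 ± 0.18 at 4 h (0.0711, not called) and -0.69 ± 0.18 at 8 h (0.0234). Both 4 h calls held without each library in turn. The MOLT4 2 h call was lost without 7 of the 8 libraries (limma adjusted p up to 0.184; all but degrader replicate 3), the PSN1 8 h call without KB-0742 replicate 1, 2 or 3 or degrader replicate 2 or 4 (up to 0.131), and the RH4 8 h call without KB-0742 replicate 2 or 3 or degrader replicate 1 or 3 (up to 0.0704). Against vehicle none of the 15 CCNL1 differences was called (limma adjusted p 0.104 to 0.982), although with the replicate block KI-CDK9d-32 at 4 h (0.0259) and KB-0742 at 8 h (0.0223) in MOLT4 were, as was the MOLT4 difference between compounds at 8 h (0.0142).

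**Figure D3:**
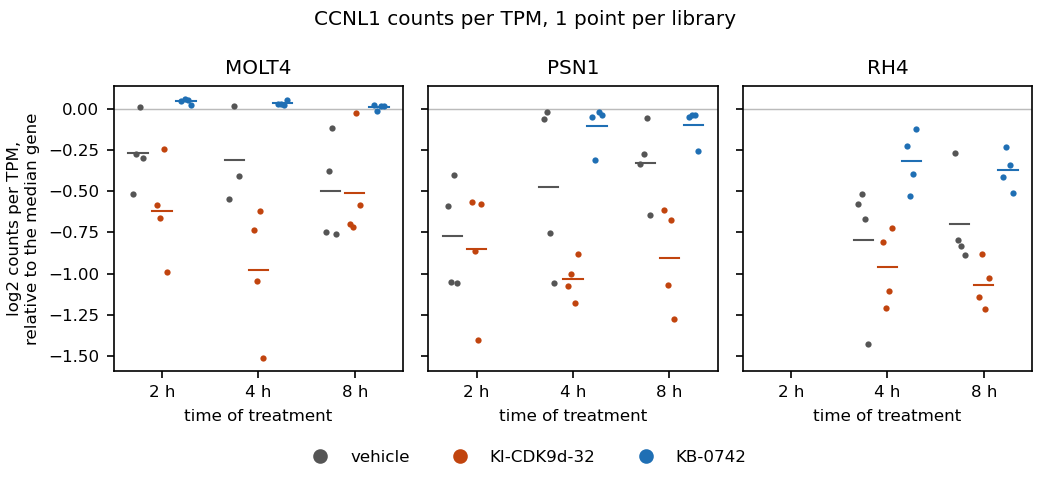
Log2 counts per TPM of CCNL1 in every library, less the library's median over genes, by line, time and agent. The KB-0742 libraries of MOLT4 at 4 h lie between 0.02 and 0.05, above the degrader libraries at -1.51 to -0.62.

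The other members seldom changed in this ratio, and the background differed widely between comparisons. With KI-CDK9d-32 against KB-0742 the called members, beside the share of all genes called, were 1 at 2 h (1.86%), 2 at 4 h (6.79%) and 3 at 8 h (9.77%) in MOLT4, 1 at 4 h (2.27%) and 1 at 8 h (2.64%) in PSN1, and 0 at 4 h (1.89%) and 2 at 8 h (5.05%) in RH4. Beside CCNL1 these were CCNL2, lower in MOLT4 at 4 h (-0.29) and 8 h (-0.21), CCNK, lower (-0.22), and CDK12, higher (0.29), in MOLT4 at 8 h, and CDK11A, lower in RH4 at 8 h (-0.09). Against vehicle 2 of all the members' differences were called by limma: CCNK lower with KI-CDK9d-32 in MOLT4 at 8 h (-0.25, beside 18.6% of genes) and CDK11A higher with KB-0742 in MOLT4 at 4 h (0.27, beside 3.71%). No member was called in the other comparisons with vehicle, where the share of genes called was 0.106% and 0.833% for the degrader in MOLT4 at 2 and 4 h, and 1.06% and 5% for the inhibitor at 2 and 8 h. In PSN1 it was 0%, 0.104% and 0.626% for the degrader at 2, 4 and 8 h, and 1.32% and 1.55% for the inhibitor at 4 and 8 h. In RH4 it was 0.0539% and 0.471% for the degrader and 1.43% and 4.38% for the inhibitor at 4 and 8 h.

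On the relative scale CDK12 rose with KB-0742 in MOLT4 at 4 and 8 h and in RH4 at 8 h, and fell with KI-CDK9d-32 in PSN1 at 8 h. In MOLT4 at 8 h CDK12 stood at 22.1, 19.9, 23.3 and 18.5 CPM in vehicle, 42.0, 45.0, 40.0 and 44.5 under KB-0742 and 13.8, 12.2, 30.4 and 17.0 under the degrader. The KB-0742 libraries were apart from both other groups, and 1 degrader library lay above vehicle and 3 below. The one above was replicate 3, which had the highest spike-in share (61.5%) and the fewest gene counts (1598283) of the MOLT4 libraries. The log2 fold change with KB-0742 was 1.03 ± 0.22 at 8 h (edgeR adjusted p 0.000126) and 1.07 ± 0.25 at 4 h (0.000657), and at 2 h it was 0.33 ± 0.23 (0.312). In PSN1 at 8 h CDK12 stood at 25.3, 15.3, 17.2 and 15.1 CPM in vehicle, 18.5, 10.7, 17.2 and 19.9 under KB-0742 and 5.82, 7.06, 9.97 and 7.97 under the degrader. The degrader libraries were the lowest 4, by -1.24 ± 0.30 against vehicle (0.00203), a fall that was also called relative to spike-in RNA (-2.18, 4.43e-05). In RH4 at 8 h the levels were 18.7, 15.7, 24.1 and 19.7 CPM in vehicle, 26.6, 36.3, 28.9 and 31.5 under KB-0742 and 18.4, 14.4, 13.1 and 18.9 under the degrader. KB-0742 lay above vehicle by 0.65 ± 0.21 (0.0115, or 0.0534 without vehicle replicate 2). On the spike-in scale these rises turned negative: -0.27 in MOLT4 at both times, and -0.94 in RH4, where it was called lower (0.0101). CDK12 was also called lower on that scale with KB-0742 in PSN1 at 8 h (-1.05) and RH4 at 4 h (-0.92), and with KI-CDK9d-32 in MOLT4 (-3.19) and RH4 (-1.19) at 8 h. With KB-0742 in RH4 CDK12 fell less than the median gene, which changed by -1.12 at 4 h and -1.66 at 8 h. On log2(TPM + 1) the KB-0742 rise in RH4 at 8 h turned to -0.27 (limma adjusted p 0.183).

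Between the compounds, CDK12 was lower with KI-CDK9d-32 in 5 of 7 comparisons on the relative scale. The log2 fold changes were -1.27 ± 0.25 and -1.27 ± 0.24 in MOLT4 at 4 and 8 h, -1.10 ± 0.30 in PSN1 at 8 h, and -0.70 ± 0.22 and -0.92 ± 0.22 in RH4 at 4 and 8 h, with no overlap of the libraries in any of the 5. The RH4 difference at 4 h was lost without degrader replicate 1 or 4 or KB-0742 replicate 4 (edgeR adjusted p 0.0552 to 0.0593). In MOLT4 at 2 h the difference was -0.51 (0.120, interval -0.99 to -0.04) and in PSN1 at 4 h -0.17 (0.741, interval -0.75 to 0.40). Only the MOLT4 difference at 8 h was called relative to spike-in RNA (-2.92, 4.29e-07), and the RH4 one at 4 h turned to 0.03. The effect at 8 h was higher in MOLT4 than in PSN1 for KI-CDK9d-32 (1.07 ± 0.37, 0.0304) and for KB-0742 (1.08 ± 0.34, 0.0197), but the first was lost without replicate 1, 3 or 4 (0.0842 to 0.213) and the second without 1, 2 or 4 (0.0522 to 0.118). The first turned to -1.01 relative to spike-in RNA (0.153).

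CDK13 was read from few counts, 0 to 42 in a library with a median of 15, and on the relative scale it was called against vehicle in none of the 15 comparisons (edgeR adjusted p at least 0.161). Relative to spike-in RNA it was called lower in 5 of them: with KI-CDK9d-32 in MOLT4 (-3.60) and RH4 (-1.57) at 8 h, and with KB-0742 in MOLT4 at 4 h (-1.83) and in RH4 at 4 h (-1.08) and 8 h (-1.18). In the same order, the median gene changed on that scale by -2.99, -0.92, -1.38, -1.12 and -1.66. Genes called lower there numbered 10609 of 11664, 6222 of 12058, 5893 of 11664, 7458 of 12058 and 9388 of 12058. With KB-0742 in RH4 CDK13 fell less than the median gene at both times. In RH4 at 8 h CDK13 stood at 12.1, 8.87, 6.02 and 9.27 CPM in vehicle, 16.1, 7.01, 7.66 and 16.6 under KB-0742 and 4.50, 5.37, 3.69 and 8.19 under the degrader. Of the 4 degrader libraries 3 lay below every KB-0742 library. The degrader was lower than the inhibitor by -1.09 ± 0.38 (0.0187), a call lost without KB-0742 replicate 1 or 4 or degrader replicate 3 (0.0617 to 0.0872). In PSN1 at 8 h the difference was -1.04 ± 0.47 (0.1001, interval -2.01 to -0.07) with no overlap.

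Cyclin K, the shared partner of both kinases, rose in MOLT4 at 8 h with either compound on the relative scale. It stood at 35.7, 28.99, 46.2 and 35.3 CPM in vehicle, 51.0, 48.2, 47.2 and 66.5 under KB-0742 and 70.8, 61.0, 49.8 and 53.8 under the degrader. Each treated library lay above each vehicle library, by 0.55 ± 0.16 (edgeR adjusted p 0.00296) and 0.70 ± 0.16 (0.000288), and the compounds overlapped (0.15, interval -0.18 to 0.47). These became, relative to spike-in RNA, -0.75 (0.151) and -2.10 (2.44e-05). On log2(TPM + 1) they became -0.28 (limma adjusted p 0.304) and -0.71, the latter called lower (0.00605). With KB-0742 CCNK was called lower on the spike-in scale in 4 other comparisons, MOLT4 at 4 h (-1.57), PSN1 at 4 h (-0.91) and RH4 at 4 h (-1.21) and 8 h (-1.79). The median gene changed by -1.38, -0.92, -1.12 and -1.66 in the same comparisons. In RH4 at 8 h CCNK stood at 33.9, 40.6, 44.4 and 40.2 CPM in vehicle, 35.4, 32.5, 41.8 and 28.2 under KB-0742 and 53.1, 54.0, 47.6 and 49.9 under the degrader. Here CCNK was higher with the degrader than with the inhibitor, the reverse of CDK12 in the same libraries, by 0.56 ± 0.16 (0.00532), and by 1.24 relative to spike-in RNA (0.00105, with the median gene at 0.71). In MOLT4 at 4 h the same difference was 0.42 ± 0.16 (0.0428), lost without KI-CDK9d-32 replicate 2, 3 or 4 or KB-0742 replicate 2 or 3 (0.0535 to 0.117). In PSN1 none of the 7 CCNK comparisons was called on the relative scale. The effect of KB-0742 on CCNK was larger at 8 h than at 4 h in MOLT4 by 0.83 ± 0.23 (0.00814), and larger at 8 h in MOLT4 than in RH4 by 0.73 ± 0.22 (0.0226, or 0.155 to 0.348 without replicate 2 or 4).

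**Figure D4:**
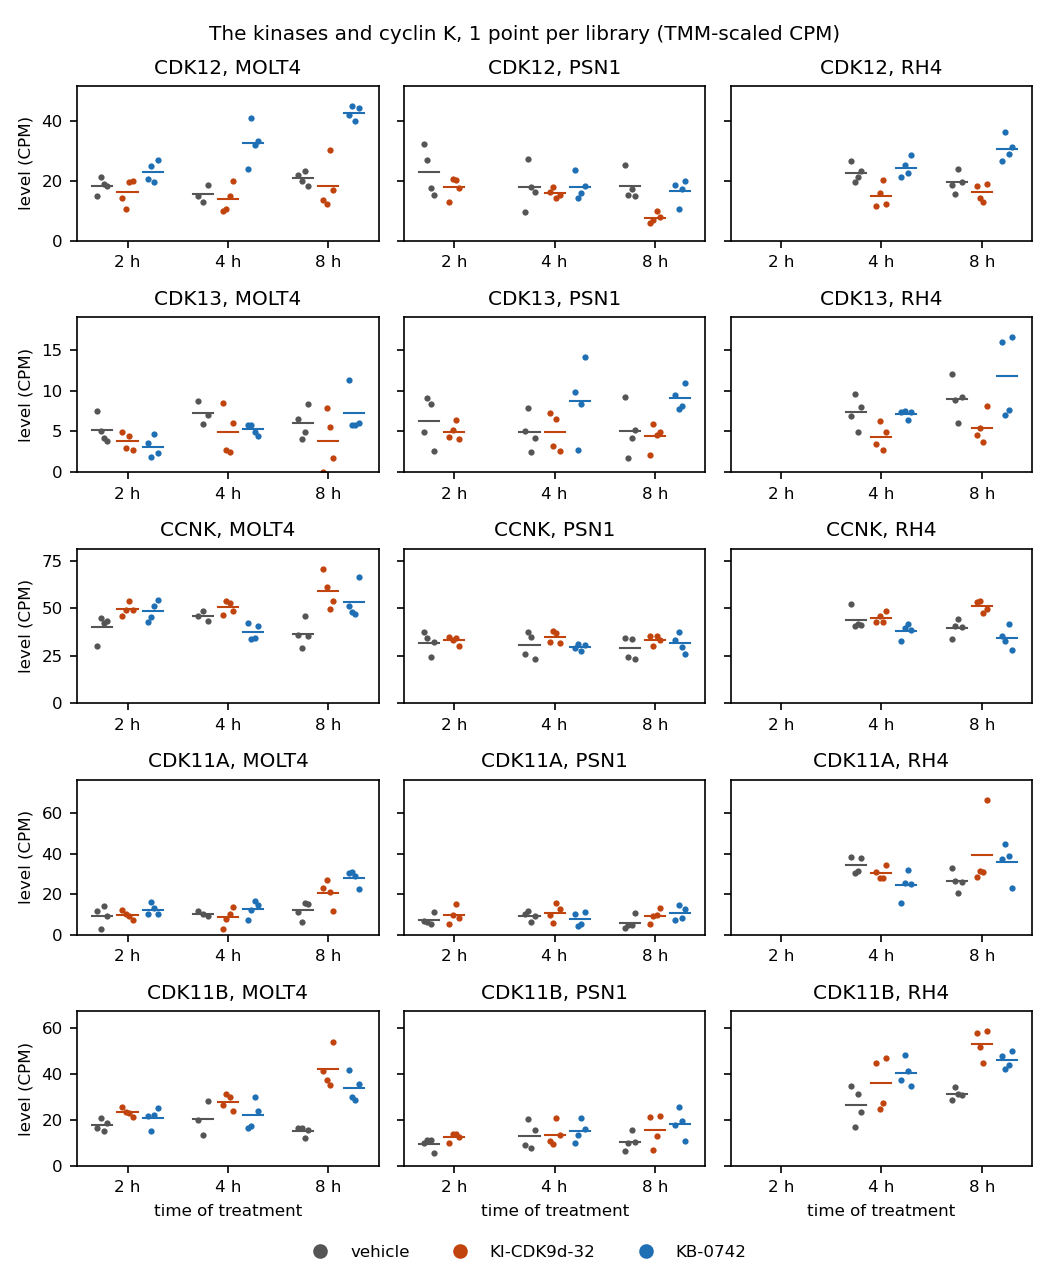
CPM of CDK12, CDK13, CCNK, CDK11A and CDK11B in every library, by line, time and agent, with 1 point per library, on the relative scale. CDK12 in PSN1 at 8 h lies at 5.82 to 9.97 CPM with KI-CDK9d-32, below all vehicle and KB-0742 libraries.

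The CDK11 kinases rose in MOLT4 at 8 h with both compounds on the relative scale. CDK11B stood at 16.3, 16.5, 11.98 and 15.5 CPM in vehicle, 41.6, 29.9, 28.8 and 35.7 under KB-0742 and 41.3, 37.2, 35.0 and 53.8 under the degrader. Every treated library lay above vehicle, by 1.17 ± 0.22 (edgeR adjusted p 1.26e-05) and 1.47 ± 0.22 (1.55e-07). CDK11A stood at 11.2, 6.23, 15.5 and 14.9 CPM in vehicle, 30.3, 30.9, 28.8 and 22.8 under KB-0742 and 22.9, 26.9, 21.2 and 11.7 under the degrader. Here 1 degrader library lay among those of vehicle, and the changes were 1.24 ± 0.32 (0.00133) and 0.79 ± 0.34 (0.0484), the latter lost without vehicle replicate 1 or 2 or degrader replicate 1, 2 or 3 (0.0646 to 0.182). The sum of both copies rose from 27.0 ± 3.18 CPM (SD, n = 4) to 62.2 ± 6.58 under the inhibitor and 62.5 ± 4.22 under the degrader, by log2 fold changes of 1.20 (5.29e-08) and 1.21 (5.68e-08). All 4 rises reversed relative to spike-in RNA: CDK11B to -0.17 under the inhibitor and -1.29 under the degrader (0.00936), and CDK11A to -0.13 and -2.10 (0.000190). On log2(TPM + 1) the degrader values turned to -0.13 for CDK11B (limma adjusted p 0.564) and to -0.58 for CDK11A, called lower (0.0408). At 4 h in MOLT4 CDK11B with KB-0742 was called lower on the spike-in scale (-1.44).

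In RH4 at 8 h CDK11B stood at 28.4, 34.3, 31.3 and 30.6 CPM in vehicle, 47.6, 42.1, 43.6 and 49.7 under KB-0742 and 57.6, 51.7, 44.7 and 58.4 under the degrader. Vehicle was the lowest group without overlap, and the log2 fold changes were 0.55 ± 0.20 (edgeR adjusted p 0.0240) and 0.77 ± 0.19 (0.00434). The KB-0742 call was lost without vehicle replicate 1 or KB-0742 replicate 1 or 4 (0.0512 to 0.0694). For the sum of both copies the changes at 8 h in RH4 were 0.51 (0.00998) and 0.68 (0.00195). At 4 h KB-0742 was called higher for CDK11B alone (0.61, 0.0198), lost without vehicle replicate 2 or 4 or KB-0742 replicate 2 (0.0518 to 0.115), and not for the sum (0.10, 0.695), with CDK11A at -0.48 in the same comparison. In PSN1 neither copy was called alone, and the sum with KB-0742 at 8 h was (0.81, 0.0227). Relative to spike-in RNA the CDK11B value in RH4 turned to -0.14 with KI-CDK9d-32 at 8 h. With KB-0742 it turned to -0.42 at 4 h and to -1.04 at 8 h, the last called lower (0.00212). On log2(TPM + 1) these KB-0742 values were -0.083 (limma adjusted p 0.714) and -0.48, the latter called lower (0.0238). Relative to spike-in RNA CDK11A with KB-0742 was called lower at both times (-1.45 and -1.09). In PSN1 with KB-0742 on that scale CDK11A was called lower at 4 h (-1.23, 0.0251), and at 8 h CDK11A (-0.10) and CDK11B (-0.05) were not called. The compounds did not differ in CDK11A or CDK11B in any of the 7 comparisons on the relative scale (lowest adjusted p 0.185 and 0.212), with fold changes of -0.64 to 0.48 and -0.25 to 0.35. On the spike-in scale CDK11A was called lower with KI-CDK9d-32 in MOLT4 at 8 h (-1.97) and higher in RH4 at 4 and 8 h (0.93 and 0.81), and CDK11B lower in MOLT4 (-1.12) and higher in RH4 (0.90) at 8 h. The median gene moved the same way in these comparisons, by -1.46 in MOLT4 at 8 h and by 0.72 and 0.71 in RH4 at 4 and 8 h. The effect on CDK11B in MOLT4 was larger at 8 h than at 4 h on the relative scale, by 1.03 ± 0.31 under the degrader (0.0208) and 1.07 ± 0.32 under the inhibitor (0.0134). The first was lost without vehicle replicate 4 at 4 h or vehicle replicate 3 or degrader replicate 4 at 8 h (0.0518 to 0.170) and turned to -0.61 relative to spike-in RNA, and the second was lost without vehicle replicate 4 at 4 h (0.109). For CDK11A in RH4 with KB-0742 the time difference of 0.94 missed the threshold (0.0705) and passed it with the replicate block (0.96, 0.0495).

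**Figure D5:**
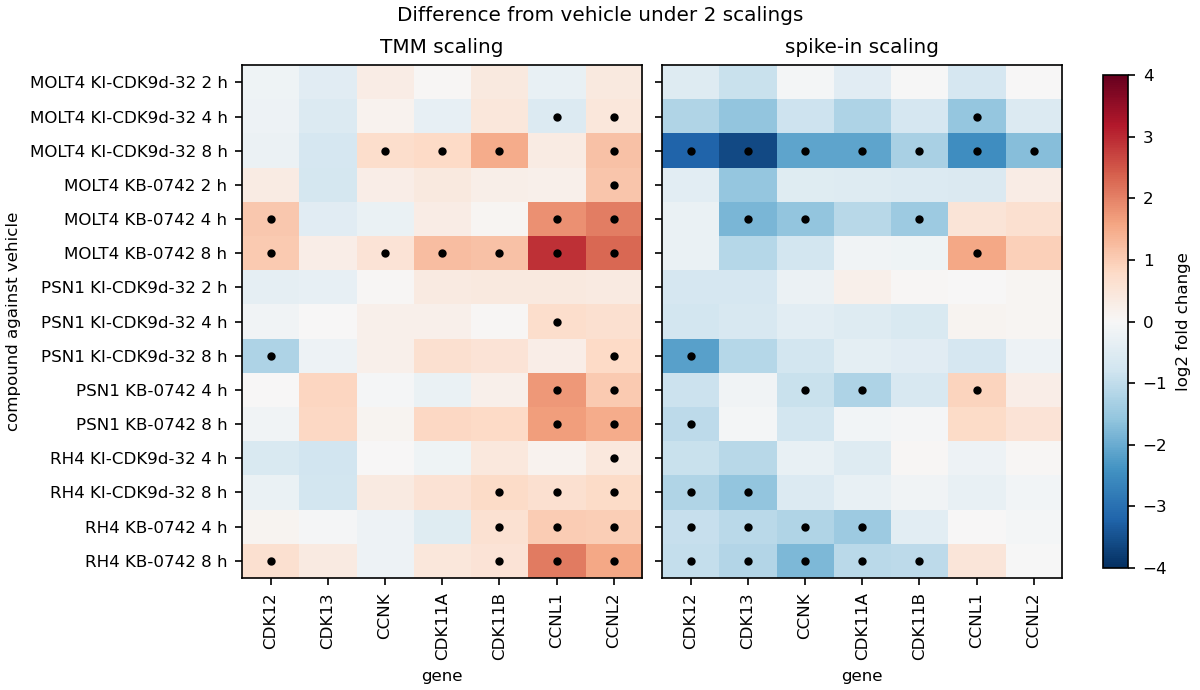
Log2 fold change of each of the 7 genes against vehicle, on the relative scale and relative to spike-in RNA, with called values marked. CCNL1 with KB-0742 in MOLT4 at 8 h is the highest at 2.92; relative to spike-in RNA most of the positive values fall towards 0 or below.

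The counts of called members stand beside the share of all tested genes called in the same comparison. That share joins genes called higher and lower, here and for the gene lists below. With KB-0742 in MOLT4 at 8 h, 2730 of 11664 genes were called higher and 3009 lower. In MOLT4 the degrader against vehicle gave 0 of 7 at 2 h (9.98% of genes; 1 member at an unadjusted p under 0.05, 0 by DESeq2), 1 higher and 1 lower at 4 h (32.6%) and 4 higher at 8 h (49.6%). With KB-0742 in MOLT4 there were 1 higher at 2 h (26.1%), 3 higher at 4 h (35.8%) and 6 higher at 8 h (49.2%). In PSN1 KI-CDK9d-32 gave 0 at 2 h (0.481%; 0 at an unadjusted p under 0.05 and 0 by DESeq2), 1 higher at 4 h (7.36%) and 1 higher and 1 lower at 8 h (20.7%), and KB-0742 gave 2 higher at 4 h (23.9%) and 2 higher at 8 h (30.2%). In RH4 KI-CDK9d-32 gave 1 higher at 4 h (5.36%) and 3 higher at 8 h (15.2%), and KB-0742 gave 3 higher at 4 h (31.6%) and 4 higher at 8 h (45.4%). Most of these counts stand beside large background shares and are read as descriptions only.

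Between the compounds the called members were 2 lower at 2 h (18.3%), 1 higher and 3 lower at 4 h (35.7%) and 3 lower at 8 h (58.5%) in MOLT4. They were 1 lower at 4 h (17.4%) and 3 lower at 8 h (24.8%) in PSN1, and 3 lower at 4 h (25.8%) and 1 higher and 4 lower at 8 h (38.4%) in RH4. For the change of effect from 4 to 8 h there were 3 higher with each compound in MOLT4 (12.5% of genes for the degrader and 17.8% for the inhibitor) and 2 higher with KB-0742 in RH4 (8.52%). There were 0 with either compound in PSN1 (0.016% and 1.88%; 1 and 0 members at an unadjusted p under 0.05, 0 and 0 by DESeq2) and 0 with KI-CDK9d-32 in RH4. In that last comparison 0% of all genes were called, although 891 had an unadjusted p under 0.05 and DESeq2 called 65; of the members 2 had such a p and DESeq2 called 0. For the effect at 8 h between lines there were 3 higher in MOLT4 than in PSN1 (12.3%) and 3 higher than in RH4 (9.36%) with KB-0742, and 1 higher in MOLT4 than in PSN1 with KI-CDK9d-32 (17.6%). The 3 other line differences had 0 called members: KI-CDK9d-32 in MOLT4 against RH4 (16.7%; 1 member at an unadjusted p under 0.05, 1 by DESeq2) and PSN1 against RH4 for the degrader (0.573%; 1 and 0) and for the inhibitor (7.81%; 1 and 0).

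Of the related genes, the 7 subunits of the SF3B complex, a known CDK11 substrate complex, rose together with KB-0742 at 8 h on the relative scale. All 7 of 7 were called higher in each line, beside 49.2%, 30.2% and 45.4% of all genes called in either direction in MOLT4, PSN1 and RH4. Genes called higher there numbered 2730 of 11664, 1880 of 12471 and 2715 of 12058. The median log2 fold change of the list was 1.02 in MOLT4, 0.69 in PSN1 and 1.18 in RH4, beside medians over all genes of -0.10, -0.05 and -0.09. SF3B4 changed the most, by 1.53, 1.07 and 1.52, or 0.17, 0.17 and -0.06 relative to spike-in RNA. On that scale the medians of this list turned to -0.33, -0.20 and -0.42. With KI-CDK9d-32 at 8 h, where 49.6%, 20.7% and 15.2% of all genes were called, the count was 1 higher and 3 lower in MOLT4, led by SF3B3 (-1.17), 1 higher in PSN1 and 3 higher in RH4, both led by SF3B4 (0.35 and 0.62, turning to -0.62 and -0.30 relative to spike-in RNA).

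Of 16 long repair genes linked to CDK12, the counts called with KB-0742 at 8 h were 7 lower and 4 higher in MOLT4, beside 49.2% of all genes called, 5 lower and 1 higher in PSN1 (30.2%), and 8 lower and 3 higher in RH4 (45.4%). Their medians were -0.31, -0.42 and -0.73 beside -0.10, -0.05 and -0.09 over all genes, and -1.64, -1.28 and -2.29 relative to spike-in RNA beside -1.41, -0.94 and -1.66. The imbalance was not tested. BRCA1, which acts in repair by homologous recombination, led in MOLT4 (-1.89) and PSN1 (-2.67), and RAD51D in RH4 (-2.41). With KI-CDK9d-32, beside the same shares of all genes as for the SF3B list, the counts were 3 lower and 5 higher in MOLT4, led by MDC1 (1.43, or -1.38 relative to spike-in RNA), 3 and 1 in PSN1, led by BLM (1.06), and 3 and 2 in RH4, led by RAD51D (-1.18). Of the 11 other transcription-linked kinases and cyclins, 11 were tested in MOLT4 and 10 in PSN1 and RH4. With KB-0742 at 8 h 5, 3 and 4 were called higher and 3, 2 and 3 lower, beside the same shares of 49.2%, 30.2% and 45.4% of all genes, with medians of -0.10, 0.21 and 0.15, or -1.44, -0.82 and -1.40 relative to spike-in RNA. The largest change was in CCNT2 in MOLT4 (2.73) and PSN1 (2.13) and in CCNT1 in RH4 (2.61), both cyclin partners of CDK9. Relative to spike-in RNA these were 1.41, 1.22 and 1.06. With KI-CDK9d-32 2, 1 and 1 were higher and 6, 1 and 0 lower, beside 49.6%, 20.7% and 15.2% of all genes called. The medians of the list were -0.64, -0.15 and -0.23, or -3.41, -1.13 and -1.12 relative to spike-in RNA. The largest change was in CCNH, the CDK7 partner, in MOLT4 (-2.85), and in CCNT2 in PSN1 (1.31) and RH4 (1.37). Relative to spike-in RNA these were -5.56, 0.35 and 0.50.

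Over all 91 libraries, with the mean of each line subtracted, the genes whose log2 CPM followed CCNL1 most closely among 1953 candidates were CBLL1 (Pearson r 0.91) and YTHDF2 (0.89). For CCNL2 they were SLC25A6 (0.89) and RPS14 (0.86), and the 2 cyclins followed each other at 0.81. Likeness was weaker for 3 of the kinases: CDK12 with WDR33 (0.67) and PLK1 (0.66), CDK13 with RBM25 (0.54) and ADNP (0.49), and CDK11A with RBM39 (0.49) and KMT2D (0.49). CCNK followed SERINC3 at 0.56, and its r with CDK12 was -0.14 and with CDK13 -0.33. These are descriptions over libraries that share treatments, depth and scaling.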

How the data were processed

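The authors deposited whole-number estimated counts per gene and log2(TPM + 1) values for each library, made with Salmon on hg38 per the submitters' processing notes; the Salmon version and the annotation are not given in the sources used here. Per the labels' protocols, each lysate received the same quantity of ERCC and SIRV spike-ins, and libraries were made by SMART-seq2 and Nextera XT, without molecular identifiers. Counts per gene were tested with edgeR 4.0.16 (quasi-likelihood, robust, TMM scaling, filterByExpr with a minimum count of 10, Benjamini-Hochberg at 0.05), with all groups of a line in 1 fit and all 23 groups for comparisons between lines, 37 comparisons in all. Intervals are at 95%. Alternatives were spike-in scaling (99 spike-ins, 92 of them ERCC), DESeq2 1.42.0, limma 3.58.1 on log2(TPM + 1), no filter, a replicate block, 2 groups only, the CDK11 sum and left-out libraries. Counts per TPM were tested with limma, chosen after seeing the data. R was 4.3.3, and 47 duplicate Y-chromosome entries were left out. On simulated counts with 200 genes changed by a log2 fold of 1, edgeR recovered 59.5%, 57.5% and 56.5% against vehicle in MOLT4, PSN1 and RH4 with KB-0742 at 8 h, and 6.5% in the RH4 time comparison. The changed genes were drawn only from those above a minimum mean count, and all genes were given the same spread. CDK13, with a median count of 15, lay below that minimum in each line, so these rates do not apply to it. Replicate pairs differed by at least 3.24 times counting noise (chi-square per degree of freedom). Same-numbered libraries deviated together (r over 0.1) in 74 of 86 pairs and in every pair of 14 of 22 comparisons, where the numbers pair the libraries; the fit had no replicate block, and blocked values are given where they change a call.

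The members, gene lists and naming rule were chosen with earlier results of these data known. Beyond the 7 members, the rule names, for each list, line and compound at 8 h, the called gene with the largest change, and for each member the 2 genes with the highest correlation among genes whose mean log2 CPM reaches 5. Some of the genes this rule names are not reported here.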

Additional observations from a re-analysis of the deposited data

Results flagged for a closer look

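Single libraries stood apart from the rest of their group of 4 by Dixon's test in 11 of 154 member groups, where chance gives about 1 in 20. CCNK in MOLT4 vehicle replicate 1 at 2 h was at 30.2 CPM beside 42.4 to 44.7 CPM in the other libraries of its group. CCNK in RH4 vehicle replicate 1 at 4 h was at 52.3 CPM beside 40.7 to 41.6 CPM in the other libraries of its group. CCNL1 in PSN1 KB-0742 replicate 2 at 4 h was at 82.1 CPM beside 59.5 to 62.0 CPM in the other libraries of its group. CCNL2 in MOLT4 KI-CDK9d-32 replicate 3 at 8 h was at 107 CPM beside 74.7 to 75.1 CPM in the other libraries of its group. CCNL2 in MOLT4 vehicle replicate 4 at 2 h was at 26.8 CPM beside 43.2 to 44.6 CPM in the other libraries of its group. CCNL2 in PSN1 KI-CDK9d-32 replicate 4 at 2 h was at 80.2 CPM beside 73.4 to 74.5 CPM in the other libraries of its group. CCNL2 in PSN1 KI-CDK9d-32 replicate 4 at 4 h was at 122 CPM beside 79.0 to 85.5 CPM in the other libraries of its group. CCNL2 in RH4 KB-0742 replicate 1 at 4 h was at 188 CPM beside 215 to 220.0 CPM in the other libraries of its group. CDK11A in RH4 KI-CDK9d-32 replicate 4 at 8 h was at 66.6 CPM beside 28.3 to 31.2 CPM in the other libraries of its group. CDK13 in MOLT4 KB-0742 replicate 1 at 8 h was at 11.3 CPM beside 5.76 to 6.08 CPM in the other libraries of its group. CDK13 in RH4 KB-0742 replicate 3 at 4 h was at 6.38 CPM beside 7.39 to 7.53 CPM in the other libraries of its group. The spike-in share also stood apart in 3 groups. The spike-in share of MOLT4 vehicle 8 h replicate 4 was at 11.7% beside 15.3 to 15.8% in the other libraries of its group. The spike-in share of MOLT4 KB-0742 4 h replicate 3 was at 49.4% beside 16.3 to 20.9% in the other libraries of its group. The spike-in share of PSN1 KB-0742 8 h replicate 4 was at 22.4% beside 14.7 to 15.9% in the other libraries of its group. Without the KB-0742 library of MOLT4 at 4 h with the high spike-in share, CDK12 (1.08), CCNL1 (1.89) and CCNL2 (1.91) were still called higher against vehicle by edgeR.

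Effects also differed between times or lines on the relative scale by edgeR's test of the difference itself. The log2 effect at 8 h less that at 4 h was called for CDK11B with KI-CDK9d-32 in MOLT4 (1.03), CCNL1 with KI-CDK9d-32 in MOLT4 (0.86), CCNL2 with KI-CDK9d-32 in MOLT4 (0.70), CCNK with KB-0742 in MOLT4 (0.83), CDK11B with KB-0742 in MOLT4 (1.07), CCNL1 with KB-0742 in MOLT4 (1.09), CCNL1 with KB-0742 in RH4 (1.07) and CCNL2 with KB-0742 in RH4 (0.57). The difference of the 8 h effect between lines was called for CDK12 with KI-CDK9d-32 in MOLT4 less PSN1 (1.07), CDK12 with KB-0742 in MOLT4 less PSN1 (1.08), CCNL1 with KB-0742 in MOLT4 less PSN1 (1.14), CCNL2 with KB-0742 in MOLT4 less PSN1 (0.72), CCNK with KB-0742 in MOLT4 less RH4 (0.73), CCNL1 with KB-0742 in MOLT4 less RH4 (0.81) and CCNL2 with KB-0742 in MOLT4 less RH4 (0.72). Their errors, adjusted p-values and dependence on single libraries stand with the results.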

How the results depend on the processing

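In this account the degrader is KI-CDK9d-32 and the inhibitor KB-0742. Scaling to spike-in RNA, not used for the main values, turned 41 of 259 member tests. A further 36 of 79 called ones kept their sign but were no longer called. Calls were also lost among those that turned, such as CDK12 with KB-0742 in MOLT4 at 8 h (edgeR adjusted p 0.638). Limma on log2(TPM + 1) turned 13 of 105 tests and left 14 of 34 called ones uncalled with their sign kept. Without the low-count filter 0 turned and 15 of 79 called ones were uncalled, and with DESeq2 size factors 0 and 2. The cause of these changes was not tested.

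Relative to spike-in RNA, the log2 values that turned are given by line. In MOLT4 under the degrader, against vehicle, these were CCNL2 -0.55 at 4 h, and CCNK -2.10, CDK11A -2.10, CDK11B -1.29, CCNL1 -2.48 and CCNL2 -1.72 at 8 h. In PSN1 under the degrader, against vehicle, these were CCNL2 -0.21 at 8 h. In RH4 under the degrader, against vehicle, these were CDK11B -0.14, CCNL1 -0.29 and CCNL2 -0.10 at 8 h. In MOLT4 under the inhibitor, against vehicle, these were CDK12 -0.27 and CDK11B -1.44 at 4 h, and CDK12 -0.27, CCNK -0.75, CDK11A -0.13 and CDK11B -0.17 at 8 h. In RH4 under the inhibitor, against vehicle, these were CDK12 -0.92, CDK11B -0.42 and CCNL2 -0.065 at 4 h, and CDK12 -0.94, CDK13 -1.18, CDK11A -1.09, CDK11B -1.04 and CCNL2 -0.0058 at 8 h. Between compounds in MOLT4 at 8 h they were CCNK -1.35 and CDK11B -1.12. Between compounds in RH4 at 4 h they were CDK12 0.031 and CCNL2 0.11. The degrader effect in MOLT4 at 8 h minus 4 h turned for CDK11B -0.61, CCNL1 -0.92 and CCNL2 -1.16. The degrader effect 8 h MOLT4 minus PSN1 turned for CDK12 -1.01, CCNK -1.36, CDK11A -1.73, CCNL1 -1.82 and CCNL2 -1.51. The degrader effect 8 h MOLT4 minus RH4 turned for CDK12 -1.99, CDK13 -2.01, CCNK -1.55, CDK11A -1.82 and CCNL2 -1.62.

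With limma on log2(TPM + 1), the log2 values that turned are given by line. In MOLT4 under the degrader, against vehicle, these were CCNL2 -0.12 at 4 h, and CCNK -0.71, CDK11A -0.58, CDK11B -0.13, CCNL1 -1.26 and CCNL2 -0.40 at 8 h. In that 8 h comparison limma called 6 members, where edgeR called 4, all higher. CCNK, CDK11A, CCNL1 and CCNL2 were called lower by limma (adjusted p 0.00605, 0.0408, 0.000823 and 0.0305). In MOLT4 under the inhibitor, against vehicle, the values that turned were CDK11A -0.71 and CDK11B -0.71 at 4 h, and CCNK -0.28 at 8 h. The 4 h values were called lower (limma adjusted p 0.0319 and 0.00874). In RH4 under the inhibitor, against vehicle, the values that turned were CDK11B -0.083 and CCNL1 -0.16 at 4 h, and CDK12 -0.27 and CDK11B -0.48 at 8 h. Of these CDK11B at 8 h was called lower (limma adjusted p 0.0238).

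Spike-in scaling gave these counts of called members: 1 in place of 2 for the degrader against vehicle in MOLT4 at 4 h, 7 in place of 4 for the degrader against vehicle in MOLT4 at 8 h, 0 in place of 1 for the inhibitor against vehicle in MOLT4 at 2 h, 1 in place of 6 for the inhibitor against vehicle in MOLT4 at 8 h, 0 in place of 1 for the degrader against vehicle in PSN1 at 4 h, 1 in place of 2 for the degrader against vehicle in PSN1 at 8 h, 1 in place of 2 for the inhibitor against vehicle in PSN1 at 8 h, 0 in place of 1 for the degrader against vehicle in RH4 at 4 h, 0 in place of 2 for the degrader against the inhibitor in MOLT4 at 2 h, 1 in place of 4 for the degrader against the inhibitor in MOLT4 at 4 h, 7 in place of 3 for the degrader against the inhibitor in MOLT4 at 8 h, 0 in place of 1 for the degrader against the inhibitor in PSN1 at 4 h, 1 in place of 3 for the degrader against the inhibitor in PSN1 at 8 h, 1 in place of 3 for the degrader effect in MOLT4 at 8 h minus 4 h, 0 in place of 3 for the inhibitor effect in MOLT4 at 8 h minus 4 h, 0 in place of 2 for the inhibitor effect in RH4 at 8 h minus 4 h, 5 in place of 1 for the degrader effect 8 h MOLT4 minus PSN1, 6 in place of 0 for the degrader effect 8 h MOLT4 minus RH4, 0 in place of 3 for the inhibitor effect 8 h MOLT4 minus PSN1, 0 in place of 3 for the inhibitor effect 8 h MOLT4 minus RH4 and 0 in place of 2 for vehicle 8 h MOLT4 minus PSN1. These counts join members called higher and lower. For the degrader against vehicle in MOLT4 at 8 h, 7 lower replaced 4 higher, beside 10609 of 11664 genes called lower. The 7 for the degrader against the inhibitor there were lower, beside 6390 genes. The 5 and 6 for the degrader effect 8 h MOLT4 minus PSN1 and minus RH4 were lower, beside 7799 and 8484 of 15881 genes. No low-count filter gave these counts of called members: 1 in place of 2 for the degrader against vehicle in MOLT4 at 4 h, 2 in place of 1 for the degrader against vehicle in PSN1 at 4 h, 2 in place of 4 for the inhibitor against vehicle in RH4 at 8 h, 1 in place of 2 for the degrader against the inhibitor in MOLT4 at 2 h, 0 in place of 3 for the degrader effect in MOLT4 at 8 h minus 4 h, 1 in place of 2 for the inhibitor effect in RH4 at 8 h minus 4 h, 0 in place of 1 for the degrader effect 8 h MOLT4 minus PSN1 and 1 in place of 2 for vehicle 8 h MOLT4 minus PSN1. 2 groups only gave these counts of called members: 1 in place of 2 for the degrader against vehicle in MOLT4 at 4 h and 1 in place of 2 for the degrader against the inhibitor in MOLT4 at 2 h. Limma on log2(TPM + 1) gave these counts of called members: 5 in place of 3 for the inhibitor against vehicle in MOLT4 at 4 h, 2 in place of 6 for the inhibitor against vehicle in MOLT4 at 8 h, 1 in place of 2 for the degrader against vehicle in PSN1 at 8 h and 0 in place of 1 for the degrader against vehicle in RH4 at 4 h. DESeq2 Wald test gave these counts of called members: 2 in place of 1 for the degrader against vehicle in PSN1 at 4 h, 1 in place of 2 for the degrader against the inhibitor in MOLT4 at 2 h, 3 in place of 1 for the degrader effect 8 h MOLT4 minus PSN1 and 1 in place of 0 for the degrader effect 8 h MOLT4 minus RH4. The replicate block gave these counts of called members: 2 in place of 1 for the degrader against vehicle in PSN1 at 4 h, 2 in place of 1 for the degrader against the inhibitor in PSN1 at 4 h and 1 in place of 2 for vehicle 8 h MOLT4 minus PSN1. DESeq2 size factors in edgeR gave these counts of called members: 1 in place of 2 for the degrader against the inhibitor in MOLT4 at 2 h and 3 in place of 1 for the degrader effect 8 h MOLT4 minus PSN1.

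Spike-in scaling gave these counts of called genes: 213 in place of 1164 for the degrader against vehicle in MOLT4 at 2 h, 10709 in place of 5781 for the degrader against vehicle in MOLT4 at 8 h, 15 in place of 60 for the degrader against vehicle in PSN1 at 2 h, 1645 in place of 918 for the degrader against vehicle in PSN1 at 4 h, 6521 in place of 2576 for the degrader against vehicle in PSN1 at 8 h, 5343 in place of 2983 for the inhibitor against vehicle in PSN1 at 4 h, 5984 in place of 3767 for the inhibitor against vehicle in PSN1 at 8 h, 105 in place of 646 for the degrader against vehicle in RH4 at 4 h, 6311 in place of 1838 for the degrader against vehicle in RH4 at 8 h, 7519 in place of 3815 for the inhibitor against vehicle in RH4 at 4 h, 9509 in place of 5480 for the inhibitor against vehicle in RH4 at 8 h, 485 in place of 2138 for the degrader against the inhibitor in MOLT4 at 2 h, 1639 in place of 4164 for the degrader against the inhibitor in MOLT4 at 4 h, 1318 in place of 2175 for the degrader against the inhibitor in PSN1 at 4 h, 1527 in place of 3094 for the degrader against the inhibitor in PSN1 at 8 h, 5302 in place of 1459 for the degrader effect in MOLT4 at 8 h minus 4 h, 0 in place of 2071 for the inhibitor effect in MOLT4 at 8 h minus 4 h, 0 in place of 2 for the degrader effect in PSN1 at 8 h minus 4 h, 2 in place of 235 for the inhibitor effect in PSN1 at 8 h minus 4 h, 1 in place of 0 for the degrader effect in RH4 at 8 h minus 4 h, 305 in place of 1027 for the inhibitor effect in RH4 at 8 h minus 4 h, 7899 in place of 2796 for the degrader effect 8 h MOLT4 minus PSN1, 8566 in place of 2658 for the degrader effect 8 h MOLT4 minus RH4, 10 in place of 91 for the degrader effect 8 h PSN1 minus RH4, 336 in place of 1960 for the inhibitor effect 8 h MOLT4 minus PSN1, 112 in place of 1487 for the inhibitor effect 8 h MOLT4 minus RH4 and 250 in place of 1240 for the inhibitor effect 8 h PSN1 minus RH4. Limma on log2(TPM + 1) gave these counts of called genes: 9534 in place of 5781 for the degrader against vehicle in MOLT4 at 8 h, 6451 in place of 4174 for the inhibitor against vehicle in MOLT4 at 4 h, 106 in place of 60 for the degrader against vehicle in PSN1 at 2 h, 1742 in place of 918 for the degrader against vehicle in PSN1 at 4 h, 4713 in place of 2576 for the degrader against vehicle in PSN1 at 8 h, 4699 in place of 1838 for the degrader against vehicle in RH4 at 8 h and 6247 in place of 3815 for the inhibitor against vehicle in RH4 at 4 h. DESeq2 Wald test gave these counts of called genes: 126 in place of 60 for the degrader against vehicle in PSN1 at 2 h, 60 in place of 2 for the degrader effect in PSN1 at 8 h minus 4 h, 398 in place of 235 for the inhibitor effect in PSN1 at 8 h minus 4 h, 65 in place of 0 for the degrader effect in RH4 at 8 h minus 4 h and 235 in place of 91 for the degrader effect 8 h PSN1 minus RH4. The replicate block gave these counts of called genes: 138 in place of 60 for the degrader against vehicle in PSN1 at 2 h, 1456 in place of 918 for the degrader against vehicle in PSN1 at 4 h, 1036 in place of 646 for the degrader against vehicle in RH4 at 4 h, 91 in place of 2 for the degrader effect in PSN1 at 8 h minus 4 h, 426 in place of 235 for the inhibitor effect in PSN1 at 8 h minus 4 h, 71 in place of 0 for the degrader effect in RH4 at 8 h minus 4 h and 203 in place of 91 for the degrader effect 8 h PSN1 minus RH4. 2 groups only gave these counts of called genes: 144 in place of 60 for the degrader against vehicle in PSN1 at 2 h. No low-count filter gave these counts of called genes: 22 in place of 2 for the degrader effect in PSN1 at 8 h minus 4 h, 35 in place of 0 for the degrader effect in RH4 at 8 h minus 4 h and 182 in place of 91 for the degrader effect 8 h PSN1 minus RH4.

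With each library left out in turn (each replicate number for comparisons between lines), counts of called members ranged from 0 to 2 for the degrader against vehicle in MOLT4 at 4 h, 0 to 1 for the degrader against vehicle in PSN1 at 4 h, 0 to 1 for the degrader against vehicle in RH4 at 4 h, 1 to 2 for the degrader against the inhibitor in MOLT4 at 2 h, 0 to 3 for the degrader effect in MOLT4 at 8 h minus 4 h, 1 to 3 for the inhibitor effect in RH4 at 8 h minus 4 h, 0 to 1 for the degrader effect 8 h MOLT4 minus PSN1, 1 to 3 for the inhibitor effect 8 h MOLT4 minus PSN1, 0 to 2 for the inhibitor effect 8 h MOLT4 minus RH4 and 1 to 2 for vehicle 8 h MOLT4 minus PSN1. Counts of called genes ranged from 34 to 54 for the degrader against vehicle in PSN1 at 2 h, 537 to 954 for the degrader against vehicle in PSN1 at 4 h, 361 to 510 for the degrader against vehicle in RH4 at 4 h, 0 to 6 for the degrader effect in PSN1 at 8 h minus 4 h, 0 to 3 for the degrader effect in RH4 at 8 h minus 4 h, 31 to 105 for the degrader effect 8 h PSN1 minus RH4, 1089 to 1608 for the inhibitor effect 8 h MOLT4 minus PSN1, 891 to 972 for the inhibitor effect 8 h MOLT4 minus RH4 and 612 to 806 for the inhibitor effect 8 h PSN1 minus RH4. Of the called member values, 25 of 34 against vehicle, 17 of 21 between compounds, 3 of 8 over time, 0 of 7 between lines and 6 of 9 in vehicle stayed called under each such omission. Leaving out single libraries from the fit of all lines was not run.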
